A study of Mus musculus with 10 samples.

Results

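Tuft cells are rare, brush-topped epithelial cells of the intestinal lining. They sense luminal compounds through a taste-like pathway: a receptor activates the G protein gustducin, phospholipase C beta releases calcium from internal stores, and calcium opens the channel TRPM5. They need the transcription factor POU2F3, and in the mouse small intestine they are the main source of the cytokine IL-25. IL-25 drives group 2 innate lymphoid cells to make IL-13, and IL-13 in turn raises tuft and goblet cell numbers. Tuft cells also make prostaglandins and leukotrienes. The 9 genes described here are Trpm5, Plcb2 and Gnat3 of the taste pathway, the transcription factors Pou2f3 and Gfi1b, the kinase gene Dclk1, the eicosanoid enzymes Ptgs1 and Alox5, and the cytokine gene Il25. They were chosen by symbol as widely used tuft cell markers, by a rule that uses no measured value, though with earlier results of these data known. Each symbol had 1 gene ID in the files, so all 9 of 9 were found among 36401 genes.

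RNA-seq was performed on terminal ileum from obese male C57Bl6 mice (10 libraries). All mice had been given a diet with 60% of its calories as fat for 6 weeks before an operation at 8 weeks of age. The VSG group (5 libraries) underwent vertical sleeve gastrectomy, in which most of the stomach is removed along its greater curvature, and then ate freely. The SPF group (5 libraries) underwent a sham operation and was pair-fed to the VSG animals. Both groups received liquid Osmolite during 4 days around surgery. About 8 weeks later both were fasted overnight, gavaged with 0.5 mL of Osmolite and killed 1 hour after it. The comparison asks how gene expression in the ileum differed between VSG and SPF mice at matched food intake. Since all animals had been given the high-fat diet, operated on and gavaged, the data hold no low-fat diet, fasted or unoperated group.

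Estimated counts summed to between 15364651 and 34058181 per library, lowest in VSG 3 and next lowest in SPF 4. The libraries VSG 2, SPF 2 and SPF 4 stood apart from their tissue label. Gata4, which encodes an upper intestinal transcription factor, was at 109 to 183 counts per 1000000 reads (CPM, normalised) in those 3 libraries and at 1.72 to 6.28 CPM in the other 7. Fabp6, the ileal bile acid-binding protein, was at 39.0 to 62.1 CPM in the 3 and at 2558 to 6112 CPM in the 7. Results are therefore also given without these 3 libraries, which leaves 4 VSG and 3 SPF. The labels do not say whether any animal gave more than 1 library, so p-values set group differences against the spread between these libraries only. In whole tissue, fewer tuft cells and less RNA per tuft cell cannot be told apart.

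Promoter windows of the members were searched for shared words. RefSeq promoter windows of GRCm38.p6 were matched for 7 of the 9 members (8 windows, 2 of them for Dclk1), all but Pou2f3 and Il25. The 250 bases before the annotated start are printed for 3 of them. Trpm5 and Alox5 are shown as the pair with the highest Pearson r among the members. That value fell without a pair of libraries, as described further on. Gnat3 is shown as the member at 0.111 to 0.466 CPM in VSG 2, SPF 2 and SPF 4 and at 0.468 CPM or more in the other 7 libraries, with no test of that split. Capitals mark a match to one of 3 searched motifs, each read on both strands and none overlapping another in these windows. The windows are chr7:143094643-143094892 (minus strand) for Trpm5, chr6:116461179-116461428 (minus strand) for Alox5 and chr5:17962320-17962569 (plus strand) for Gnat3.
Trpm5: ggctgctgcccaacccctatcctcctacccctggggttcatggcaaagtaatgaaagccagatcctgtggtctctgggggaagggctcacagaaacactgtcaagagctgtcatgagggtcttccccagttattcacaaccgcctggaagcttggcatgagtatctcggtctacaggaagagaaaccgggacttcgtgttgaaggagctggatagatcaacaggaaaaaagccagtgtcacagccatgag
Alox5: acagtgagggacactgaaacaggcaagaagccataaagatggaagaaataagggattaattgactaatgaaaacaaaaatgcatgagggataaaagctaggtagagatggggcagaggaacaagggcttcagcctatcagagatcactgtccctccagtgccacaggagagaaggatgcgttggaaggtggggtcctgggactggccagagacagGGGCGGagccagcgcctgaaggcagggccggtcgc
Gnat3: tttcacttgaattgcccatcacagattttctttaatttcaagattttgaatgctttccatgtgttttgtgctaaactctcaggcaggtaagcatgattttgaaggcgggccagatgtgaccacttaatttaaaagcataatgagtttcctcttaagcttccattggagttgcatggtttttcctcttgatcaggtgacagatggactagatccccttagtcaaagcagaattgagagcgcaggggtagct

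The POU octamer ATGCAAAT, the classical binding word of POU-domain factors such as POU2F3, was in 0 of the 8 member windows and in 1.60% of all 32851 windows. The TATA box word TATAAA was in 0 of the 8 windows, against 12.4% of all windows. The GC box GGGCGG was in 2 of the 8 windows, those of Alox5 and Gfi1b, against 32.7% of all windows, and its match in the Alox5 window is the run in capitals above. The Trpm5 and Gnat3 windows held none of the 3 words. A match is a description of letters, and a missing match says nothing about binding elsewhere.

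No tuft cell marker differed between VSG and SPF ileum by more than the spread between libraries. With edgeR's quasi-likelihood test, 0 of the 8 members that passed the filter on low counts had an adjusted p under 0.05, as had 0% of all 15678 genes tested. Before adjustment, 595 genes (3.80%) had a p under 0.05, 295 of them higher in VSG (1.88%) and 300 lower in VSG (1.91%), and no member was among them. DESeq2 called 11 of 15629 genes (0.0704%), none of them a member. Of the 8 members, 3 had a log2 fold change (VSG over SPF) above 0 and 5 below, with a median of -0.07, against 41.9% above, 58.1% below and a median of -0.05 over all genes tested. VSG and SPF libraries overlapped in all 9 members, whereas 88 of the genes tested (0.561%) had groups that did not overlap. Without VSG 2, SPF 2 and SPF 4, again 0 members and 0% of 15911 genes were called, and 5 of the 8 members were lower in VSG, against 56.8% of genes.

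**Figure D1:**
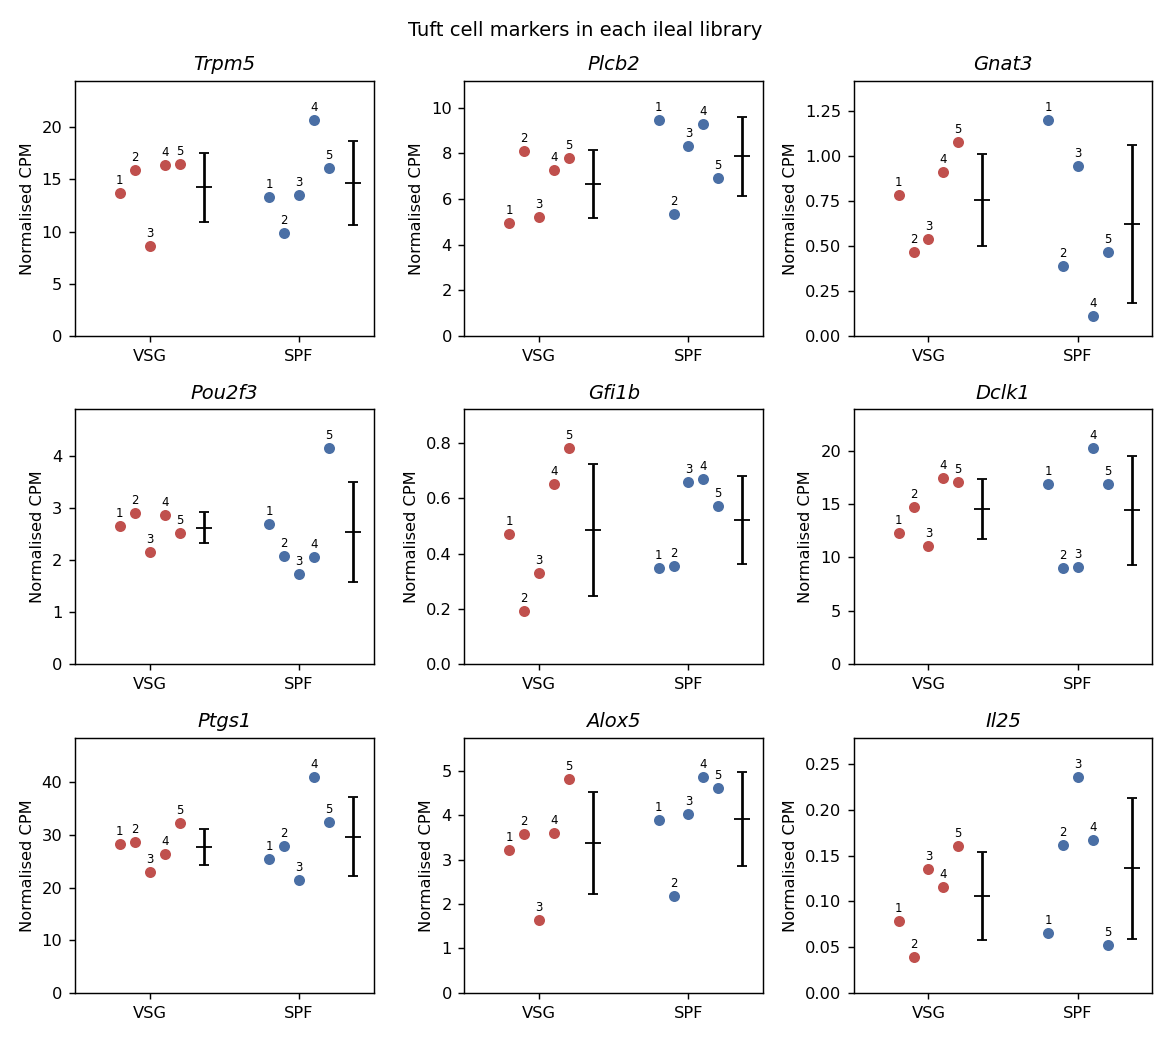
Normalised CPM of the 9 tuft cell markers in each library, VSG in red and SPF in blue, with the replicate number above each point and the mean ± SD (n = 5) beside each group. Every panel shows overlapping groups. Trpm5, Dclk1, Ptgs1 and Alox5 were each highest in SPF 4.

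Among the taste pathway genes, Trpm5 encodes the calcium-gated cation channel that depolarises the cell. Trpm5 was at 13.7, 15.9, 8.63, 16.4 and 16.5 CPM in VSG 1 to 5, and at 13.3, 9.83, 13.5, 20.7 and 16.1 CPM in SPF 1 to 5. The lowest library was VSG 3 and the highest SPF 4, so the extremes lay in different groups and the groups overlapped over most of their range. Means were 14.2 ± 3.32 CPM in VSG and 14.7 ± 4.03 CPM in SPF (SD, n = 5 each). The log2 fold change was -0.04 ± 0.23 (SE), a fold of 0.97 with a 95% interval of 0.68 to 1.37 (adjusted p = 0.993, edgeR). That interval holds neither a doubling nor a halving.

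Plcb2 encodes the phospholipase C that couples the receptor to calcium release, and blood cells also use it. Plcb2 was at 4.95, 8.09, 5.20, 7.29 and 7.81 CPM in VSG 1 to 5, and at 9.47, 5.36, 8.34, 9.28 and 6.92 CPM in SPF 1 to 5. Its 2 highest libraries, SPF 1 and SPF 4, were both SPF, but VSG 2 and SPF 3 were next and close to each other, and SPF 2 lay among the lowest. With means of 6.67 ± 1.48 CPM in VSG and 7.87 ± 1.73 CPM in SPF (SD, n = 5 each), it had the lowest p of the members. Its log2 fold change was -0.24 ± 0.21 (fold 0.85, 95% interval 0.61 to 1.17, unadjusted p = 0.289, adjusted p = 0.977, edgeR). Without the 3 libraries that stood apart it was -0.38 (95% interval -0.92 to 0.16, adjusted p = 0.769, edgeR).

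Gnat3 encodes the alpha subunit of gustducin. Gnat3 was at 0.781, 0.466, 0.540, 0.910 and 1.08 CPM in VSG 1 to 5, and at 1.20, 0.388, 0.945, 0.111 and 0.468 CPM in SPF 1 to 5. It varied more between libraries than the more abundant members, and its lowest value, in SPF 4, rests on 2 reads (95% Poisson interval 0.0135 to 0.402 CPM, counting error only). The means were 0.756 ± 0.255 CPM in VSG and 0.623 ± 0.442 CPM in SPF (SD, n = 5 each), which gave a log2 fold change of 0.27 ± 0.49 (fold 1.20, 95% interval 0.57 to 2.54, adjusted p = 0.983, edgeR). Gnat3 was the one member in which VSG 2, SPF 2 and SPF 4 (0.111 to 0.466 CPM) all lay below the other 7 libraries (0.468 to 1.20 CPM), narrowly so at SPF 5. All 3 lay below all 7 in 5.65% of the genes tested (886) and above all 7 in 6.07% (952), so 1 of 8 members is close to that background. Without the 3 libraries its log2 fold change was -0.05 (95% interval -0.98 to 0.89, adjusted p = 0.985, edgeR), and the sign of its small difference turned.

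Pou2f3 encodes the transcription factor that tuft cells require. Pou2f3 was at 2.66, 2.91, 2.16, 2.86 and 2.52 CPM in VSG 1 to 5, and at 2.70, 2.07, 1.73, 2.06 and 4.14 CPM in SPF 1 to 5. All 5 VSG values lay inside the SPF range, whose top was the single library SPF 5. The means of 2.62 ± 0.303 CPM in VSG and 2.54 ± 0.958 CPM in SPF (SD, n = 5 each) gave a log2 fold change of 0.04 ± 0.25 (fold 1.03, 95% interval 0.70 to 1.52, adjusted p = 0.993, edgeR). Its spread relative to the mean was 11.5% in VSG and 37.8% in SPF. Without SPF 5 the log2 fold change was 0.30, and without the 3 libraries that stood apart it was -0.16.

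Gfi1b, a zinc finger repressor known best from red cell and platelet precursors and also expressed in tuft cells, was near the limit of detection. Gfi1b was at 0.469, 0.194, 0.328, 0.652 and 0.779 CPM in VSG 1 to 5, and at 0.346, 0.355, 0.658, 0.669 and 0.572 CPM in SPF 1 to 5. Between 4.9 and 22.0 estimated reads per library lay behind these values, and the lowest and the highest were both VSG libraries. The log2 fold change was -0.10 ± 0.38 (fold 0.94, 95% interval 0.52 to 1.68, adjusted p = 0.993, edgeR). The summed level of 7 erythroid and megakaryocyte markers was 3.41 to 6.19 CPM in VSG and 4.58 to 8.46 CPM in SPF, and 3 of them (Gata1, Gp9 and Ppbp) were at 0 in some libraries. Their part in the Gfi1b level was not tested.

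Dclk1 encodes a microtubule-associated kinase that is the most used tuft cell label in the mouse gut, and neurons express it as well. Dclk1 was at 12.3, 14.7, 11.1, 17.4 and 17.1 CPM in VSG 1 to 5, and at 16.9, 8.99, 9.11, 20.2 and 16.9 CPM in SPF 1 to 5. SPF held both ends of the range, SPF 2 and SPF 3 at the bottom and SPF 4 at the top, and every VSG value lay between them. Means were 14.5 ± 2.83 CPM in VSG and 14.4 ± 5.08 CPM in SPF (SD, n = 5 each), and the log2 fold change was 0.01 ± 0.25 (fold 1.01, 95% interval 0.69 to 1.48, adjusted p = 0.999, edgeR). The 8 neuron and glia markers summed to 12.5 to 22.7 CPM in VSG and 6.71 to 48.6 CPM in SPF, all 8 above 0 in every library. In SPF 1 to 5 that sum was 16.1, 37.4, 6.71, 29.7 and 48.6 CPM, beside the Dclk1 values above, so Dclk1 was low both in SPF 3, with the lowest sum, and in SPF 2, with the second highest. The part of neurons in the Dclk1 level was not tested.

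Of the eicosanoid enzymes, Ptgs1 encodes cyclooxygenase 1, the first enzyme of prostaglandin synthesis, which many cell types use. Ptgs1 was at 28.3, 28.7, 23.0, 26.3 and 32.2 CPM in VSG 1 to 5, and at 25.5, 27.8, 21.5, 41.0 and 32.5 CPM in SPF 1 to 5. Apart from SPF 4, all libraries lay between 21.5 and 32.5 CPM with both groups mixed. The log2 fold change was -0.10 ± 0.17, with the narrowest interval of the members (fold 0.94, 95% interval 0.72 to 1.22, adjusted p = 0.983, edgeR).

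Alox5 encodes 5-lipoxygenase, the first enzyme of leukotriene synthesis, and myeloid cells express it strongly. Alox5 was at 3.21, 3.58, 1.63, 3.60 and 4.81 CPM in VSG 1 to 5, and at 3.90, 2.17, 4.03, 4.86 and 4.61 CPM in SPF 1 to 5. VSG 3 and SPF 2 were lowest and SPF 4 and VSG 5 highest, so each group held one low and one high library. Means were 3.37 ± 1.14 CPM in VSG and 3.91 ± 1.05 CPM in SPF (SD, n = 5 each), which gave a log2 fold change of -0.21 ± 0.30 (fold 0.87, 95% interval 0.55 to 1.36, adjusted p = 0.977, edgeR). The 8 macrophage markers summed to 230 to 767 CPM in VSG and 236 to 860 CPM in SPF, all 8 above 0 in every library. Their part in the Alox5 level was not tested.

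Il25, the cytokine that starts the type 2 circuit, was read between 1.0 and 6.0 times per library and did not pass the filter. Il25 was at 0.0781, 0.0388, 0.135, 0.116 and 0.160 CPM in VSG 1 to 5, and at 0.0650, 0.162, 0.236, 0.167 and 0.0520 CPM in SPF 1 to 5. Every library held it, and the groups overlapped. Summed over libraries there were 12.4 estimated reads in VSG and 18.0 in SPF. The difference of means was -0.031 CPM (0.106 ± 0.0478 CPM in VSG and 0.136 ± 0.0771 CPM in SPF, SD, n = 5 each), with an exact two-sided permutation p of 0.444, for which the smallest possible value is 0.0079. At this depth a difference in Il25 could be missed, and the size that could have been detected was not computed.

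**Figure D2:**
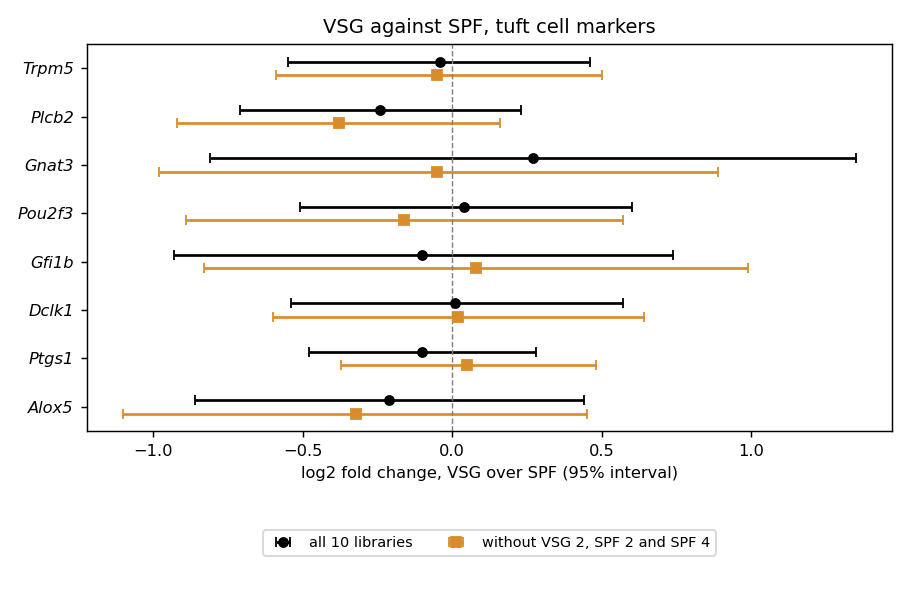
Log2 fold change (VSG over SPF) with 95% intervals from edgeR for the 8 members past the filter, in all 10 libraries (black circles) and without VSG 2, SPF 2 and SPF 4 (orange squares). All 16 intervals include 0, and those of Gnat3 and Gfi1b are widest.

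Relative to exon length, the members formed an order of levels. Ptgs1 had a median of 9.77 CPM per kilobase over the 10 libraries (range 7.50 to 14.3), above every other member in all libraries. Trpm5 followed with 3.59 CPM per kilobase (2.09 to 5.02), again without overlap with the next genes. Plcb2 (1.47), Alox5 (1.33), Dclk1 (1.15) and Pou2f3 (0.955) had medians close together on that scale, with overlapping ranges between 0.578 and 1.84 CPM per kilobase. Gnat3 (median 0.486 CPM per kilobase), Gfi1b (0.286) and Il25 (0.118) were lowest, and their ranges overlapped each other and, for Gnat3, those of the genes above. Dclk1 and Trpm5, nearly equal in reads, therefore differed in level per length, with merged exons of 13761 and 4123 bases. Merged exons pool all annotated transcripts of a gene and can be longer than any one of them. The size of this difference therefore depends on the length used. The lengths are merged exons of a GENCODE annotation of GRCm38, whereas the submitters' processing notes name mm9, so these levels are approximate.

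Other genes of the taste pathway were read from a list of 12, of which 5 passed the filter. None was called, and all 5 had log2 fold changes above 0, against 41.9% of all genes tested. Their median was 0.18, against -0.05 over all genes. Itpr3, the calcium release channel downstream of PLCB2, was at 187, 210, 196, 162 and 164 CPM in VSG 1 to 5, and at 172, 174, 118, 138 and 138 CPM in SPF 1 to 5. Itpr3 thus sat highest in 3 VSG libraries, while VSG 4 and VSG 5 were below SPF 1 and SPF 2. Its log2 fold change was 0.31 ± 0.14 (unadjusted p = 0.0542, adjusted p = 0.977, edgeR). Tas1r3, a subunit of the sweet and umami receptors, averaged 2.30 ± 0.586 CPM in VSG and 1.86 ± 0.230 CPM in SPF (SD, n = 5 each, log2 fold change 0.30, adjusted p = 0.977, edgeR). Rgs13, a regulator of G protein signalling, and Gng13, the gamma subunit of gustducin, were at log2 fold changes of 0.15 and 0.17 (adjusted p = 0.983 and 0.985, edgeR). The bitter receptor genes on this list were hardly read: Tas2r138 was at 0 in all 10 libraries, and Tas2r108, Tas2r135 and Tas2r143 were at 0 in some. Other bitter receptor genes were not on the list.

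A wider list of 21 tuft cell genes, all past the filter, had 5 genes above and 16 below 0 and no called gene. Its median was -0.09 on the log2 scale. Over all genes tested, 58.1% were below 0 and the median was -0.05. Avil, the actin regulator advillin, averaged 10.2 ± 2.89 CPM in VSG and 10.9 ± 3.14 CPM in SPF (SD, n = 5 each). Il17rb, the IL-25 receptor subunit, averaged 4.45 ± 1.21 CPM in VSG and 4.69 ± 0.783 CPM in SPF (SD, n = 5 each). Chat, which makes acetylcholine, averaged 1.03 CPM in both groups, and these 3 genes were picked after their values were seen. The lowest p of the list was that of Tslp, an epithelial cytokine gene, at 0.586, 0.233, 0.608, 0.168 and 0.400 CPM in VSG 1 to 5 and 0.780, 0.355, 0.788, 1.95 and 0.468 CPM in SPF 1 to 5. Its log2 fold change of -1.11 ± 0.52 (unadjusted p = 0.0564, adjusted p = 0.977, edgeR) was -0.60 without SPF 4, the library that stood out. Ascl2, a stem cell transcription factor, followed with -0.54 ± 0.29 (adjusted p = 0.977, edgeR), or -0.34 without SPF 5. Cd24a, a surface glycoprotein, was at -0.22 and Hmx2, a homeobox factor, at 0.43, both with an adjusted p of 0.977 in edgeR. For Cd24a the value was -0.11 without SPF 5 and -0.48 without VSG 2, SPF 2 and SPF 4 (unadjusted p = 0.0202, adjusted p = 0.645, edgeR). For Hmx2 it was 0.87 without SPF 5 and 0.21 without SPF 2.

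What varied was the level of tuft cell genes between single libraries, in both groups. VSG 3 or SPF 2 was the lowest library for 16 of the 21 genes of the wider list (76.2%) and for 3 of the 8 members (37.5%), against 18.9% of all genes tested. SPF 4 was the highest for 7 of the 21 (33.3%) and for 4 of the 8 members (50.0%), against 13.1% of all genes tested. These libraries were picked after the values were seen, so the shares carry no test. Siglec5, a lectin of tuft cells and eosinophils, was an example, picked after its values were seen, at 3.80, 4.17, 2.47, 5.23 and 5.86 CPM in VSG 1 to 5 and 4.37, 2.33, 5.53, 6.98 and 4.49 CPM in SPF 1 to 5. For Trpm5, the lowest and highest libraries were VSG 3 (8.63 CPM, 95% Poisson interval 7.20 to 10.3) and SPF 4 (20.7 CPM, 18.7 to 22.9), intervals that cover counting error only. VSG 3 and SPF 4 were the 2 libraries with the fewest reads, so both extremes of Trpm5 were shallow libraries. SPF 2, low for many of these genes, was not shallow (32941892 counts). SPF 2 and SPF 4 are also among the 3 libraries high in Gata4 and low in Fabp6, whereas VSG 3 is not. The part of gut position and of depth in this spread was not tested.

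**Figure D3:**
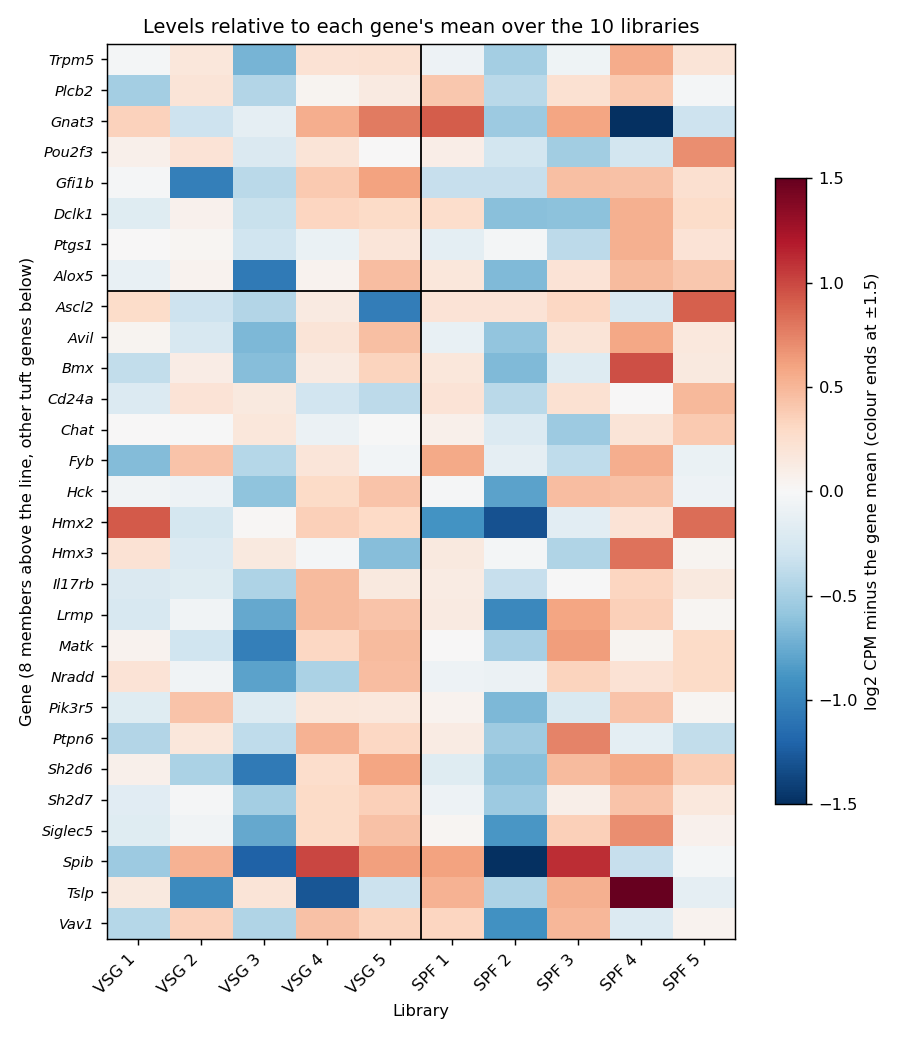
Log2 CPM of 8 members (above the line) and 21 other tuft cell genes (below), each relative to its own mean over the 10 libraries, with VSG libraries left and SPF libraries right. The columns VSG 3 and SPF 2 are mostly blue, whereas no block of colour separates VSG and SPF.

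Markers of other cells differed between the same libraries. The 9 T cell markers, all above 0 in every library, summed to 20.1 to 78.5 CPM in VSG and 34.2 to 86.1 CPM in SPF. Their sum was lowest in VSG 3 and highest in SPF 4, as for Trpm5. By the mean of their log2 CPM, VSG 3 was again lowest (0.88), but SPF 3 (2.96) was above SPF 4 (2.78). The 8 B cell markers summed to 16.8 to 195 CPM in VSG and 9.02 to 254 CPM in SPF, with SPF 2 lowest. By mean log2 CPM, SPF 4 (-0.59) was below SPF 2 (-0.09). The B cell sum was also low in SPF 4 (13.2 CPM), where Trpm5 was highest. Several genes of the wider tuft list are also expressed by leukocytes, and Spib, a transcription factor of B cells and of tuft and M cells, was at 7.42 to 35.0 CPM in VSG and 5.24 to 37.5 CPM in SPF, lowest in SPF 2 and highest in SPF 3. The 7 smooth muscle markers summed to 669 to 1433 CPM in VSG and 277 to 3594 CPM in SPF, and the 8 epithelial markers to 14128 to 20936 CPM in VSG and 11580 to 25454 CPM in SPF. SPF 4 had the lowest epithelial sum and the highest Trpm5. The part of these cells in the tuft cell gene levels was not tested.

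**Figure D4:**
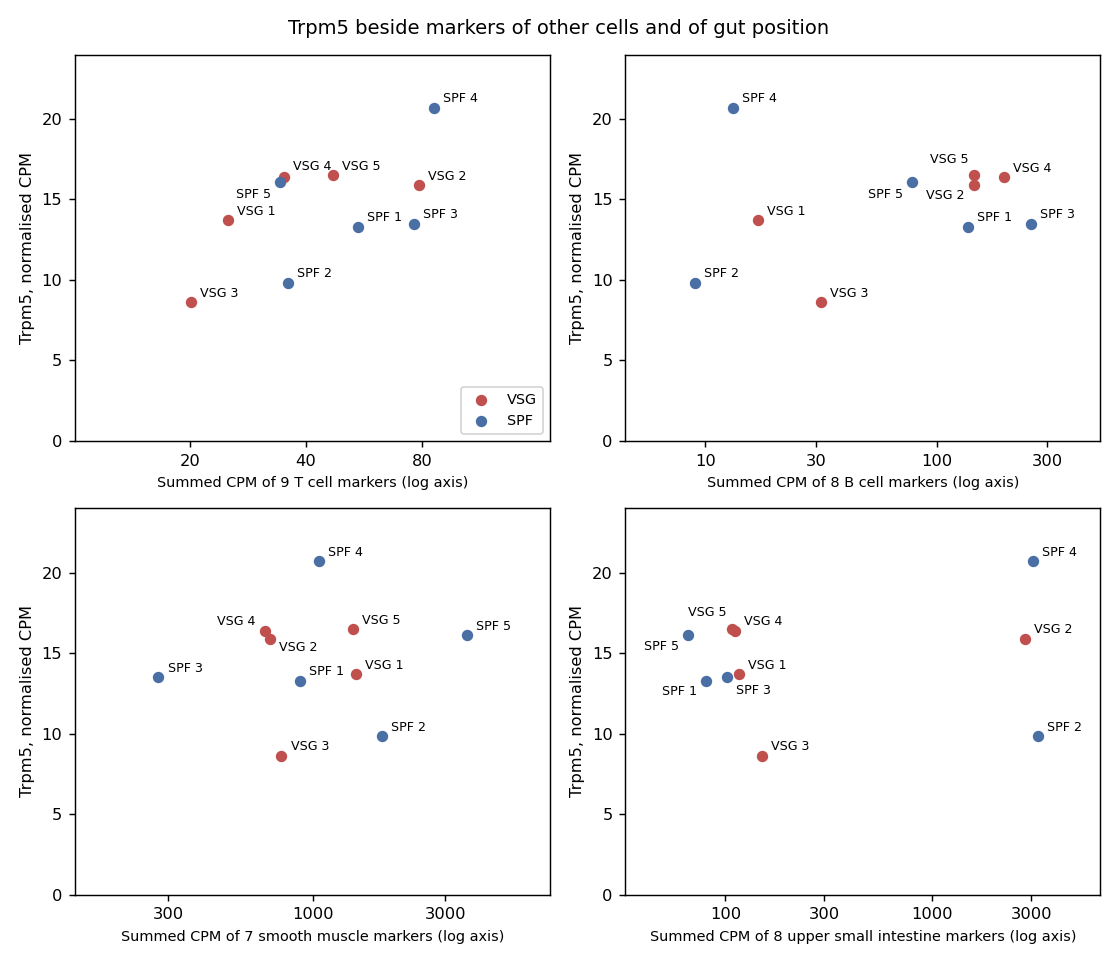
Trpm5 (normalised CPM) against the summed CPM, on log axes, of 9 T cell, 8 B cell, 7 smooth muscle and 8 upper small intestine markers, with each library labelled (VSG red, SPF blue). VSG 3 is low and SPF 4 high for both Trpm5 and T cell markers, whereas SPF 4 is among the lowest for B cell markers.

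Among the 7 libraries that kept the ileal pattern, 24 of the 28 pairs of members correlated with a positive sign in log2 CPM. Trpm5 and Alox5 had the highest Pearson r, 0.92 (exact permutation p = 0.0200, adjusted over 28 pairs 0.233), with a Spearman rho of 0.61 (exact permutation p = 0.167, adjusted 0.519). Without VSG 3 and VSG 5, the libraries farthest from the Trpm5 median, r was 0.31 over the 5 libraries left. VSG 5 (4.05 in log2 CPM of Trpm5) was hardly farther out than VSG 4 (4.04), whereas VSG 3 was at 3.12. Leaving out extreme values also narrows the range, which can lower r, so the part of single libraries in that relation is not settled. No pair passed the adjustment, and 5 had an unadjusted exact permutation p under 0.05. The values of a pair share their libraries and scaling, and the r values are given as a description.

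By the mean of their Pearson r with the 6 members of at least 1 CPM, the genes most like the members over those 7 libraries, among 14137 genes, were Igf2, Kcnh6, Cadm1 and Nckap5l at 0.75 and Dnajc18 and Glb1l at 0.74. None of these is on the tuft cell lists used here, and their values differ by little. Of the wider tuft list, the kinase gene Bmx was highest, at rank 20 with 0.72. Over all 10 libraries, a choice made after the data were seen, Bmx ranked 1 at 0.72 and the adaptor gene Sh2d7 ranked 5 at 0.68.

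Beside Ptgs1 and Alox5, 13 of 15 other genes of eicosanoid metabolism passed the filter. Of these, 1 was above 0 and 12 below, against 58.1% of all genes tested below 0, and 0 were called. Their median log2 fold change was -0.21, against -0.05 over all genes. Ptgis, prostacyclin synthase, was at 2.23, 1.22, 2.50, 1.51 and 1.74 CPM in VSG 1 to 5, and at 3.23, 2.75, 2.04, 1.59 and 3.24 CPM in SPF 1 to 5. It had the lowest p of the list at a log2 fold change of -0.50 ± 0.27 (unadjusted p = 0.0951, adjusted p = 0.977, edgeR). Ptges, prostaglandin E synthase, averaged 7.99 ± 1.67 CPM in VSG and 9.99 ± 2.32 CPM in SPF (SD, n = 5 each, log2 fold change -0.32), or -0.17 without SPF 4. Alox12, a 12-lipoxygenase, was at a log2 fold change of -0.64, or -1.0 without VSG 2 and -0.44 without VSG 3. Tbxas1, thromboxane synthase, was at -0.37, or -0.66 without VSG 2 and -0.20 without SPF 4. The adjusted p of all 3 was 0.977 in edgeR. Alox5ap, the partner protein of 5-lipoxygenase, averaged 4.75 ± 1.27 CPM in VSG and 5.42 ± 1.66 CPM in SPF (SD, n = 5 each). It was lowest in VSG 3 and SPF 2 and highest in SPF 4, like Alox5, an observation made after its values were seen.

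Downstream of IL-25, a list of 17 genes of the type 2 circuit had 12 past the filter, 4 above and 8 below 0, and no called gene. The list's median was -0.06 on the log2 scale. Over all genes tested, 58.1% were below 0 and the median was -0.05. Il4ra, the receptor chain shared by IL-4 and IL-13, was at 213, 214, 285, 167 and 213 CPM in VSG 1 to 5, and at 126, 136, 168, 146 and 159 CPM in SPF 1 to 5. Only VSG 4, just below SPF 3, overlapped with the other group. The log2 fold change was 0.57 ± 0.16 (95% interval 0.23 to 0.91, unadjusted p = 0.00357, adjusted p = 0.977, edgeR), the single gene of the list with an unadjusted p under 0.05, against 3.80% of all genes. It ranged from 0.33 to 0.65 over the alternatives, with a lowest adjusted p of 0.226, so Il4ra did not pass the test in any of them. Areg, the growth factor amphiregulin, averaged 41.4 ± 14.5 CPM in VSG and 27.3 ± 12.2 CPM in SPF (SD, n = 5 each, log2 fold change 0.60), or 1.07 without the 3 libraries that stood apart. Cysltr2, a leukotriene receptor, was at -0.68 and Il17ra, the second chain of the IL-25 receptor, at 0.18, and all 3 had an adjusted p of 0.977 in edgeR.

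The effector cytokines were at or near 0. Il13 was at 0.0781 and 0.135 CPM in VSG 1 and VSG 4 and at 0 in the other 3 VSG libraries, and at 0.572 CPM in SPF 5 and at 0 in the other 4 SPF libraries. The goblet cell protein gene Retnlb, which IL-13 induces, was at 0.624 CPM in SPF 5, its highest library. Sprr2a1, which has near-identical copies and is uncertain as a single gene, was at 14388 CPM in SPF 5 and between 768 and 5758 CPM in the other 9 libraries. SPF 5 was also the library highest in Pou2f3 (4.14 CPM), whereas Dclk1 and Trpm5 there (16.9 and 16.1 CPM) were within the range of the other libraries. Il25 in SPF 5 was at 0.0520 CPM, the lowest SPF value, on 2.0 estimated reads. Gnat3 in SPF 5 was at 0.468 CPM, within the range of the other libraries. The same library had the highest smooth muscle sum (3594 CPM). Of the mast cell list, Kit (40.5 CPM), also a gene of interstitial pacemaker cells, was highest in SPF 5. The mucosal mast cell protease genes Mcpt1 (3.25 CPM) and Mcpt2 (1.33 CPM) were highest there as well. The defining genes Cpa3, Cma1 and Fcer1a were between 0 and 0.162 CPM in all libraries. Tpsb2 and Mcpt4 averaged 0.355 and 0.0862 CPM in VSG, and 0.207 and 0.0379 CPM in SPF. SPF 5 was singled out after its values were seen, and no test was made of 1 library.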

How the data were processed

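RNA from terminal ileum was sequenced as single-end 50-base reads from Illumina TruSeq libraries, per the labels' protocols. Strand handling, the aligner and the way fractions of reads were assigned are not given in the sources used here. The submitters' processing notes name DESeq, without a version, and mm9. Per Ensembl gene, the authors deposited estimated counts (36401 genes, 10315 with no count, 61.25% of values whole within 1e-06). The authors also deposited log2 values relative to the SPF median, which was 0 for 100% of genes, and these served only as an alternative.

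Estimated counts were rounded and tested with edgeR 4.0.16 (R 4.3.3): filterByExpr with a minimum count of 10, TMM factors, a two-sided quasi-likelihood test of surgery with no other term, and Benjamini-Hochberg adjustment over all 15678 genes tested at a threshold of 0.05. Normalised CPM uses TMM factors, and log2 CPM a prior count of 2. Mean CPM and fitted fold change are separate estimates. Counting intervals are 95% exact Poisson intervals and cover counting error only. Depth, as total estimated counts, ran between 15364651 and 34058181 per library, so members under 1 CPM rest on 1.0 to 37.0 reads per library.

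The members and all lists were chosen with earlier results of these data known. All 172 list genes were matched by symbol. Named genes are the 9 members, the 4 genes of lowest p of each related list, the 6 genes most like the members, Gata4 and Fabp6, and defining markers of other cells, and any other was picked after its values were seen. The 3 libraries left out together were picked in earlier results. Replicate numbers were not used to pair the libraries in the main fit. Alternatives were other scalings and filters, DESeq2 1.42.0, limma-voom (limma 3.58.1), a gut position covariate, and left-out libraries. The fit was tested on simulated counts. Correlations were computed with scipy 1.17.1. Il25, under the filter, was compared by exact permutation.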

Additional observations from a re-analysis of the deposited data

Results flagged for a closer look

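For 30 genes (the 9 members, the related genes of lowest p, and some genes of type 2 and mast cell responses), the highest and lowest value of each group of 5 libraries was compared with the rest of its group. Of 60 groups checked, 6 held a value far from the others, and none was a group of a member. Chance alone marks about 1 in 20 groups, but that rate is no measure for these 6. The added genes of type 2 and mast cell responses were picked after their values were seen, and Il13 and Retnlb were at or near 0. Tslp stood at 1.95 CPM in SPF 4, against 0.355 to 0.788 CPM in the other 4 SPF libraries. Ptges stood at 10.9 CPM in VSG 2, against 7.02 to 7.68 CPM in the other VSG libraries, and Tbxas1 at 4.54 CPM in VSG 2, against 1.90 to 2.29 CPM. Both VSG 2 and SPF 4 are libraries high in Gata4. Il13 was at 0.572 CPM in SPF 5 and at 0 in the other SPF libraries. Retnlb was at 0.624 CPM in SPF 5, against 0 to 0.0788 CPM in the other SPF libraries. In VSG 3, Retnlb was at 0.203 CPM, against 0 to 0.0391 CPM in the other VSG libraries, on 3.0 estimated reads.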

How the results depend on the processing

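In edgeR, limma-voom, limma on the deposited log2 values, and every fit without 1 library (lowest 0, highest 0), 0 genes were called. DESeq2 called 11, and 0 of the members tested were called in all 22 alternatives. A replicate block gave 0 called genes and 0 members. Deviations of same-numbered libraries correlated at -0.32 to 0.18, none matching its own number best, which does not exclude a pairing. Scaling to 8 epithelial markers moved the median of all genes to -0.28, library totals to -0.11 and upper quartile factors to -0.10, against -0.05. Under these 3, Dclk1 was at -0.31, -0.09 and -0.05 and Pou2f3 at -0.24, -0.06 and -0.02. Relative to the shifted median under the epithelial scaling, Dclk1 was at -0.03, Pou2f3 at 0.04, Trpm5 at -0.05 and Gfi1b at -0.09. On that scale Ptgs1 was at -0.13, Plcb2 at -0.18, Alox5 at -0.20 and Gnat3 at 0.41. Rgs13 was at -0.11, Gng13 at -0.08 and Il17ra at -0.05 under the epithelial scaling. Trpm5 was at 0.01 in limma-voom and 0.02 with a gut position covariate, where Gng13 was at -0.01. Without VSG 2, SPF 2 and SPF 4, Pou2f3 was at -0.16, Gnat3 at -0.05, Ptgs1 at 0.05 and Gfi1b at 0.08, and the Il25 difference was 0.005 CPM, the last chosen after seeing the data. Leaving out 1 library at a time gave log2 fold changes between -0.12 and 0.18 for Dclk1, -0.16 and 0.12 for Trpm5, -0.06 and 0.30 for Pou2f3, 0.04 and 0.65 for Gnat3, -0.35 and -0.14 for Plcb2, -0.18 and 0.06 for Ptgs1, -0.37 and -0.04 for Alox5, -0.32 and 0.11 for Gfi1b, -0.02 and 0.29 for Rgs13 and -0.07 and 0.36 for Gng13. For Il25 the difference lay between -0.052 and -0.006 CPM. Without the 2 libraries farthest from the median, the Pearson r of Trpm5 was -0.60 with Gnat3 and -0.15 with Plcb2. Over all 10 libraries, chosen after seeing the data, Trpm5 and Gnat3 had r = -0.21, and 1 of 28 pairs was called, Trpm5 and Alox5 (r = 0.91, adjusted permutation p = 0.0143). The cause of these changes was not tested. Depth limits Il25, Gfi1b and Gnat3 most.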

Other observations

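A pair of genes next to the tuft cell circuit were high in the libraries with high Gata4. They were singled out after their values were seen. Il33, an alarmin gene that acts on the same innate lymphoid cells as IL-25, was at 47.4 CPM in VSG 2, 25.0 CPM in SPF 2 and 27.4 CPM in SPF 4, and between 3.50 and 13.6 CPM in the other 7 libraries. Ltc4s, leukotriene C4 synthase, was at 5.36 CPM in VSG 2, 11.1 CPM in SPF 2 and 7.11 CPM in SPF 4, and between 1.02 and 4.42 CPM in the other 7. In 6.07% of the genes tested all 3 libraries lay above the other 7. Between the groups, Il33 averaged 14.7 ± 18.5 CPM in VSG and 15.1 ± 10.8 CPM in SPF (SD, n = 5 each), and its log2 fold change was -0.04 (adjusted p = 0.999, edgeR).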
